A study of Mus musculus with 22 samples.

Results

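Glycolysis splits glucose into pyruvate, which is either reduced to lactate or passed to the mitochondrion by the pyruvate dehydrogenase complex. Male germ cells carry a second set of these enzymes. Pgk2 and Pdha2 are autosomal, intronless copies of the X-linked genes Pgk1 and Pdha1, Ldhc and Gapdhs encode testis forms of lactate dehydrogenase and glyceraldehyde-3-phosphate dehydrogenase, and Hk1 gives rise to germ-cell transcripts with their own 5' ends beside its widely used ones. The X chromosome is silenced during male meiosis, and sperm use the testis enzymes, part of them anchored in the flagellum, for motility.

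Open chromatin at 10 genes was compared in mouse male germ cells: the testis isozymes Hk1, Gapdhs, Pgk2, Ldhc and Pdha2, and their somatic counterparts Hk2, Gapdh, Pgk1, Ldha and Pdha1. The signal came from ATAC-seq, in which Tn5 transposase cuts accessible DNA. Peaks were taken that overlap the annotated gene or 2 kb on either side, which gave 24 of the 96049 peaks of the count table, 13 at testis isozymes and 11 at somatic counterparts. Without flanks 21 peaks met the rule, and with 5 kb flanks 28. No measured value entered this rule for peaks, but the genes were chosen with earlier results of these data known.

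The 22 libraries, all from C57BL/6 mice of 8 to 12 weeks, formed 7 groups. In 6 of them spermatogonia had been sorted by FACS on day 7 after tamoxifen: KIT-negative cells with high or medium MCAM, labelled undifferentiated, and KIT-positive cells with medium MCAM, labelled differentiating (MCAM-high, MCAM-medium and KIT-positive below). Each population came from control mice, named TERT-heterozygous in the titles (3, 2 and 3 libraries), and from TERT-deleted mice (3 libraries each). The genotype entry, TertCreER/+:Rosalsl-Tdtomato/+, is the same in both, so the deletion rests on the titles. The last group held 5 libraries of later germ cells, from mice with the genotype TertTdtomato/+ and with no time after tamoxifen given. In 4 of these 5, titled spermatocytes or round spermatids, the title and the library name disagree on which of these they are, so they were kept as 1 group, here replicates 1 to 5. All 5 library names carry the same source tag, Het1. Later germ cells thus differ from the spermatogonia in genotype, source and possibly tamoxifen along with stage, and these cannot be told apart. The names of the spermatogonial libraries share a number across the populations of a genotype, which may mark a common source. No label ties replicates to individual mice. The p-values below therefore cover library-to-library spread, part of which may be technical.

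Total counts in peaks ran from 922085 to 3358377 per library, and 3 counts, the smallest level taken as detectable, correspond to 1.04 to 3.11 CPM (counts scaled to a common library total, with TMM factors, the scale of the values below). The start-site peaks of 8 meiosis markers summed to 441 to 536 CPM in later germ cells and to 154 to 243 CPM over the spermatogonial groups, and those of 7 spermatid markers to 298 to 371 against 83.2 to 180 CPM. Not every marker followed its sum. Spo11 of the meiosis list (log2 fold change -2.71 ± 0.48, SE) and Crem of the spermatid list (-0.59 ± 0.21) were lower in later germ cells than in control KIT-positive cells. Peaks of 8 markers of undifferentiated spermatogonia summed to 97.8 to 133 CPM in later germ cells and 222 to 382 CPM in spermatogonia. Their mean sum was 313 CPM in control MCAM-high and 288 CPM in control KIT-positive cells, but 249 and 320 CPM in the deleted ones. This sum thus did not mark the undifferentiated populations. The 5 markers of differentiating spermatogonia summed to 191 to 226 CPM in KIT-positive and 118 to 170 CPM in KIT-negative libraries. Of the somatic cell types, 5 of 7 Sertoli markers had a peak and summed to 44.3 to 50.2 CPM in later germ cells and 68.5 to 114 CPM in spermatogonia. The 1 of 5 Leydig markers with a peak had 5.84 to 15.3 CPM in later germ cells and 14.5 to 49.4 CPM in spermatogonia, and 2 of 5 peritubular and endothelial markers summed to 7.67 to 19.5 and 14.9 to 46.4 CPM. Immune signal, from 1 of 4 markers, lay between 0 and 8.63 CPM in every library. The Sertoli and the Leydig, peritubular and endothelial sums were thus lowest in later germ cells on average. The part of these markers in the results below was not tested. In a sorted pool, a lower signal from fewer cells with an open site cannot be told apart from a smaller opening in each cell.

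A start-site peak was assigned to each gene: the peak with the highest mean count among those overlapping the 300-base promoter windows of RefSeq (GRCm38.p6; 250 bases before to 50 after a start) or, for Pdha2, the peak within 1 kb of the start. All 10 genes had both a window and such a peak. Printed here are the windows of both starts of Hk1 and of Gapdhs, compared within each gene below, of Pgk2 and Pgk1, whose signals moved in opposite directions, and of the neighbours Ldhc and Ldha, whose signals moved in the same one. Each runs 5' to 3' on the gene's strand, with the motif matches in capitals. The motifs searched on both strands were the cAMP response element or CRE, spelled TGACGTCA, and its core, spelled TGACG, so that a CRE also counts as cores on both strands. The GC box was searched as GGGCGG, the CCAAT box by the letters of its name and the E-box as CACGTG. The TATA box was searched as TATAAA and the core of the MYB motif as AACTG.
Hk1 upstream start (chr10:62379859-62380158, minus strand): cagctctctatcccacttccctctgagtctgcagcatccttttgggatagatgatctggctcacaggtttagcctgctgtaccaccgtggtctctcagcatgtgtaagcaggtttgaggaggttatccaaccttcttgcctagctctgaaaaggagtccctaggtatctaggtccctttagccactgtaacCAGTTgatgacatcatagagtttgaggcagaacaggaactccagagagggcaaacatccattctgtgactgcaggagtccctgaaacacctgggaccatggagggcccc
Hk1 downstream start (chr10:62340372-62340671, minus strand): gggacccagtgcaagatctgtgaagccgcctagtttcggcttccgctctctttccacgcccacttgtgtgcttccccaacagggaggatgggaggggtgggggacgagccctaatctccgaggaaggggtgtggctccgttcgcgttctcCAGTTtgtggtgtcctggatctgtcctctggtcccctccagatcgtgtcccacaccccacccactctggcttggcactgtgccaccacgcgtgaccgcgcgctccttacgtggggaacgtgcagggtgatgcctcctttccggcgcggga
Gapdhs upstream start (chr7:30743632-30743931, minus strand): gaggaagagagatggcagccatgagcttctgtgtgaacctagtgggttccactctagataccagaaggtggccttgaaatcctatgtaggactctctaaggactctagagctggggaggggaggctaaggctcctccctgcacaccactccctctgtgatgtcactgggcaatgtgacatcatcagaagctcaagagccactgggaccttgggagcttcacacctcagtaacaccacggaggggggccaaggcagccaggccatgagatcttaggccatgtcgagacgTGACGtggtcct
Gapdhs downstream start (chr7:30739358-30739657, minus strand): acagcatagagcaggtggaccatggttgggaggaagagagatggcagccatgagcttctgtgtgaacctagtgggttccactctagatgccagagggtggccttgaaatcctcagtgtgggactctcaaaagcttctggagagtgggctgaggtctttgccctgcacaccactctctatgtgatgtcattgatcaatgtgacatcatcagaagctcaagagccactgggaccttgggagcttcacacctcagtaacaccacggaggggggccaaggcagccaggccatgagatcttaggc
Pgk2 (chr17:40208560-40208859, minus strand): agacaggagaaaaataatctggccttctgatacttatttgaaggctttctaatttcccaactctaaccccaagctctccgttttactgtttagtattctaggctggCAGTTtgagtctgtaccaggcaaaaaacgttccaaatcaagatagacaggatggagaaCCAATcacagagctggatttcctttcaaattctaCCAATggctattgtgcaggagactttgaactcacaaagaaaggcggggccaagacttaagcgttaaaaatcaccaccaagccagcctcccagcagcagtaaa
Pgk1 (chrX:106186850-106187149, plus strand): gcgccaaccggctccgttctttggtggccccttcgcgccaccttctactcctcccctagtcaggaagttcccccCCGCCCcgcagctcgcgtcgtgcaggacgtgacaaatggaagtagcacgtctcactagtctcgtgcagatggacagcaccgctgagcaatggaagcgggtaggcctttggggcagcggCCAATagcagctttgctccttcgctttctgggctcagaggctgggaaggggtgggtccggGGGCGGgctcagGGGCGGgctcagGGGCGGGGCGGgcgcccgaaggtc
Ldhc (chr7:46861013-46861312, plus strand): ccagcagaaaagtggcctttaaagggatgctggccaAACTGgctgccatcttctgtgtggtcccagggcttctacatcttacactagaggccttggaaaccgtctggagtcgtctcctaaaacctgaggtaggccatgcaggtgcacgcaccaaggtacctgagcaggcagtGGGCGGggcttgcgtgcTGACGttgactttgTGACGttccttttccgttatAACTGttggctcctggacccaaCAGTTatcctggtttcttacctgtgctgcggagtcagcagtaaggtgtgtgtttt
Ldha (chr7:46845554-46845853, plus strand): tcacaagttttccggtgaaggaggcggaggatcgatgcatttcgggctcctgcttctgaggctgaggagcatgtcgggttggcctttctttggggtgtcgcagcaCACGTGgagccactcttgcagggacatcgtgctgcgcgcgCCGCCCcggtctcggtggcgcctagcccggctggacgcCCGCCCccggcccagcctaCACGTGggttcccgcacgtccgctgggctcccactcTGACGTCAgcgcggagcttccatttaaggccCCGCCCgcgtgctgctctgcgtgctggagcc

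The windows of the 10 genes differed in base composition. The median over all 32851 RefSeq windows was 52.7% GC, with a ratio of observed to expected CpG of 0.384. Pgk1, Ldha and Hk2 lay at 66.7%, 67.3% and 67.3% GC with CpG ratios of 0.723, 0.882 and 0.757, and Pdha1 and Gapdh at 62% and 56.7% with 0.741 and 0.501. Pgk2 had 43% GC and a CpG ratio of 0.291, Ldhc 53.3% and 0.424, the upstream Gapdhs window 55.7% and 0.173, and the upstream Hk1 window 51.3% and 0.0507. At Hk1 the contrast fell within 1 gene, since the downstream window had 63.3% GC and a CpG ratio of 0.665. The Pdha2 window was the poorest in GC, at 29.7%, lower than all but 0.81% of windows.

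GC boxes numbered 5 in the Pgk1 window, 3 each in those of Ldha and Hk2 and 1 in that of Ldhc. None was found in the windows of the somatic genes Gapdh and Pdha1 or of the testis genes Pgk2, Pdha2, Gapdhs and Hk1; 35.7% of all windows hold 1 or more. Ldhc held 2 CRE cores, at bases -61 and -47 from its start, and 3 MYB cores, motifs found in 20.8% and 44.8% of windows. The full CRE, present in 1.79% of windows, occurred once, at base -12 of Ldha, which also held 2 E-boxes (7.15% of windows). Pgk2 held 2 CCAAT boxes (37.4% of windows), and Pdha2 a TATA box at base -44 (13.6%). A match of this kind describes the letters only.

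Gapdhs has 2 annotated starts whose windows are near copies of each other. A local alignment of both paired 268 bases, of which 248 (92.5%) were identical, with an unbroken shared run of 107 bases. The next most alike pair among the 14 member windows, apart from windows that overlap, shared a run of no more than 10 bases. Reads from the shared stretch could be placed at either start. The sources used here do not give how such reads were counted, and the split of signal between both Gapdhs starts is uncertain.

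Across the transition to later germ cells, testis isozymes gained and somatic counterparts lost signal at their starts, with Hk1 and Ldha as exceptions. Relative to control KIT-positive spermatogonia, 4 of 5 testis isozymes were higher at the start-site peak and none was lower, and 4 of 5 somatic counterparts were lower and 1, Ldha, was higher (edgeR quasi-likelihood test, Benjamini-Hochberg adjusted p under 0.05 over 73134 peaks). Over all start-site peaks, 24.1% were higher and 26.9% lower, with a median log2 fold change of -0.08; the medians were 2.79 for the 5 testis isozymes and -2.59 for the 5 counterparts. Of the 24 member peaks 23 could be tested, and 18 passed, 12 higher and 6 lower, against 52.0% of all peaks tested (29.2% higher and 22.8% lower). Against control KIT-negative cells 18 of 23 passed as well, 12 higher and 6 lower, where 62.5% of all peaks did (35.7% higher and 26.8% lower). In the fit of spermatogonia alone, only 7 of the 13 testis isozyme peaks passed the filter on low counts. Others, among them the upstream Hk1 start, the downstream Gapdhs start and both Ldhc flank peaks, passed it only with the later libraries, where they are high. Their direction was thus fixed by the filter, and these counts give no separate support. DESeq2's size factors moved the median of all peaks from 0.12 to 0.31 on the log2 scale. The 9 start-site calls kept their direction and passed in each of 14 alternatives, that scaling included.

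**Figure D1:**
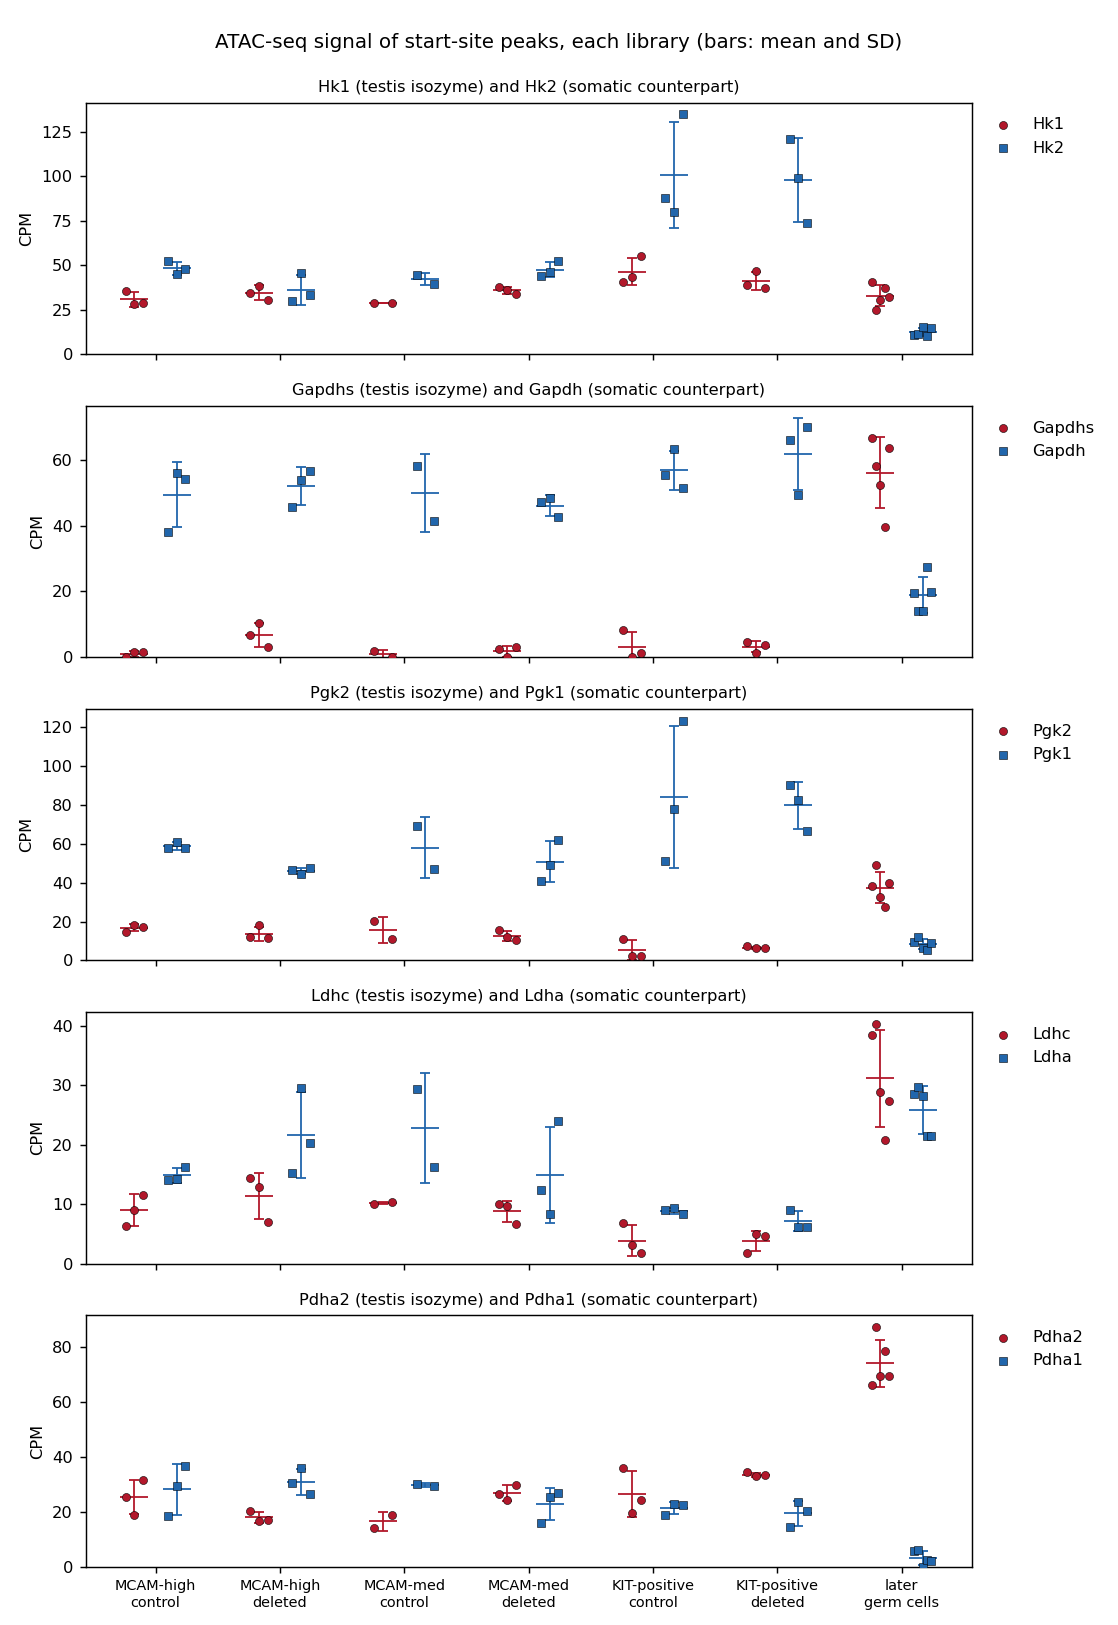
Signal of the start-site peak of each gene (CPM, vertical axis) in each library, by group (horizontal axis), for testis isozymes (red circles) and somatic counterparts (blue squares); horizontal lines and bars give the mean and SD, cut at 0. Gapdhs, Pgk2, Ldhc and Pdha2 stand highest in the 5 later libraries, Hk2 is highest in the KIT-positive groups, and Hk1 stays between 24.8 and 55.1 CPM in every library.

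Hexokinase phosphorylates glucose and so commits it to the cell. The Hk2 start (peak at chr6:82774265-82774826) showed 79.9 to 135 CPM in control KIT-positive libraries, 39.7 to 52.1 CPM in the 5 control KIT-negative libraries and 10.8, 11.1, 15.5, 10.4 and 14.8 CPM in later replicates 1 to 5. Every later library lay below every spermatogonial one, as was the case for 6.19% of all peaks tested. The log2 fold change was -3.05 ± 0.24 (SE) against KIT-positive cells (edgeR adjusted p = 1.03e-15) and -1.86 ± 0.23 against KIT-negative cells (edgeR adjusted p = 2.4e-10). A second Hk2 peak, within the gene and 341 bp downstream of the start, was lower as well (-1.23 ± 0.34, edgeR adjusted p = 0.00195), a call lost without control KIT-positive replicate 1 (-0.85, edgeR adjusted p = 0.0671).

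Hk1 behaved differently at its 2 annotated starts. The downstream one (chr10:62339767-62340755), which overlaps the opposite-strand gene Hk1os or lies within 1 kb of it, was the strongest Hk1 peak in every spermatogonial group, with 28.1 to 55.1 CPM over the 17 libraries, and later replicates 1 to 5 had 40.3, 24.8, 30.3, 37 and 32.3 CPM. These ranges overlapped. The change was -0.52 ± 0.25 against KIT-positive cells (edgeR adjusted p = 0.0711) and 0.15 ± 0.22 against KIT-negative cells (edgeR adjusted p = 0.563). The first passed in 3 of 14 alternatives (edgeR adjusted p from 0.0166 to 0.0454), among them the fit without control KIT-positive replicate 1.

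The upstream Hk1 start (peak chr10:62379583-62380090) was almost closed in spermatogonia. Control KIT-negative libraries had 0 to 1.09 CPM there, control KIT-positive libraries 0, 2.08 and 2.37 CPM, and the 9 deleted libraries up to 5.07 CPM, all near the level of 3 counts. Later replicates 1 to 5 had 34.4, 21.7, 30.3, 22.1 and 23.6 CPM, and no value overlapped. Such a separation was seen for 20.1% of all peaks tested. The log2 fold change against KIT-positive cells was 4.07 ± 0.58 (edgeR adjusted p = 4.9e-08). This peak and the one described next passed the filter on low counts only with the later libraries, where they are high. Their direction was thus fixed in advance, and neither the p-value nor the separation gives separate support. A peak in the body of the gene, 17480 bp downstream of the upstream start, had no count in the 5 control KIT-negative libraries and 8.22 to 13.9 CPM in later germ cells, which is at least 40.4-fold higher (3 counts over the group as the floor). Control KIT-positive libraries had 0 to 2.08 CPM at this gene-body peak and deleted libraries at most 1.25 CPM. It also overlaps Hk1os or lies within 1 kb of it.

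**Figure D2:**
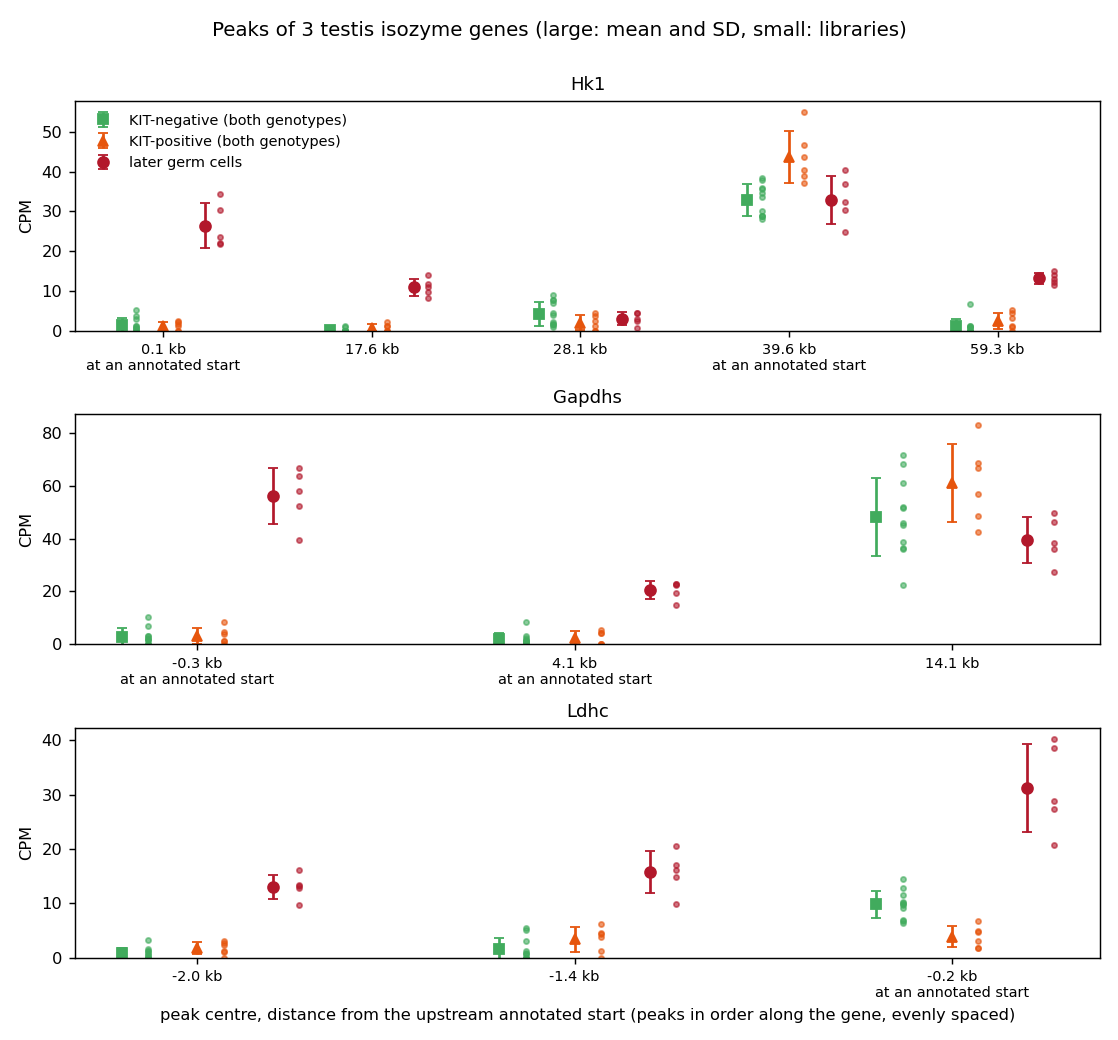
Peaks of Hk1, Gapdhs and Ldhc in order along each gene, with the distance of each peak's centre from the upstream annotated start in kb (horizontal axis) and CPM (vertical axis); large symbols and bars are the mean and SD of 11 KIT-negative, 6 KIT-positive and 5 later libraries, small points are libraries, and bars are cut at 0. In Hk1 the upstream start rises to 21.7 to 34.4 CPM in later libraries while the values of the downstream start overlap those of spermatogonia, and both Gapdhs starts and all 3 Ldhc peaks are highest in later libraries.

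Glyceraldehyde-3-phosphate dehydrogenase makes the first NADH of glycolysis. At the upstream start of Gapdhs (peak chr7:30743622-30744368, also within 1 kb of Sbsn), the 8 control spermatogonial libraries ranged from 0 to 8.24 CPM, with 1.73 CPM or less in MCAM-high, 1.83 or less in MCAM-medium and 8.24, 0 and 1.19 in KIT-positive replicates 1 to 3. Later replicates 1 to 5 had 66.7, 58.2, 52.4, 39.6 and 63.6 CPM. The groups did not overlap. This was the largest rise of a start-site peak among the 10 genes, with a log2 fold change of 4.06 ± 0.47 against KIT-positive cells (edgeR adjusted p = 1.87e-10) and 5.73 ± 0.43 against KIT-negative cells (edgeR adjusted p = 9.85e-18). Replicate 1 held 11 of the 13 counts of the control KIT-positive group, and without it the first value was 6.08.

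The downstream Gapdhs start followed the same course at a lower level, from 0 to 4.15 CPM in control spermatogonia to 22.9, 14.9, 22.9, 19.5 and 22.5 CPM in later replicates 1 to 5 (log2 fold change 4.19 ± 0.69 against KIT-positive cells, edgeR adjusted p = 1.12e-06). It passed the filter on low counts only with the later libraries, so its direction was fixed in advance and this p-value gives no separate support. All 4 counts of the control KIT-positive group lay in replicate 2, without which the fitted value was 8.27 and depended on the prior count. The third peak within the gene's bounds, 9389 bp beyond the downstream start and within 1 kb of Tmem147, was open throughout and slightly lower in later germ cells (-0.59 ± 0.24, edgeR adjusted p = 0.0345). Gapdh, the somatic enzyme, went the other way. Its start (chr6:125165002-125165995) had 38.1 to 69.8 CPM in spermatogonia and 19.4, 14.2, 14, 27.3 and 19.7 CPM in later replicates 1 to 5, again without overlap (-1.60 ± 0.25 against KIT-positive cells, edgeR adjusted p = 4.87e-07). The second Gapdh peak stayed at 3.1 to 14 CPM in every library (-0.33 ± 0.52, edgeR adjusted p = 0.613).

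Phosphoglycerate kinase makes the first ATP of the pathway. The Pgk2 start (chr17:40208080-40208831) was already measurable in KIT-negative cells, at 14.7, 18.1 and 17.3 CPM in control MCAM-high and 20.2 and 10.9 CPM in control MCAM-medium libraries. Control KIT-positive replicates 1 to 3 had 11.2, 2.08 and 2.37 CPM, and later replicates 1 to 5 had 38.5, 48.9, 32.5, 27.3 and 40 CPM. Pgk2 was lowest in 2 of the 3 KIT-positive libraries and highest in the later ones. It was higher in later germ cells than in KIT-positive cells by 2.79 ± 0.40 on the log2 scale (edgeR adjusted p = 5.77e-08) and than in KIT-negative cells by 1.21 ± 0.27 (edgeR adjusted p = 9.47e-05). Without control KIT-positive replicate 1 the first of these was 3.97.

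Pgk1, its X-linked parent, went the opposite way. The Pgk1 start (chrX:106186699-106187355) had 57.7, 60.9 and 57.8 CPM in control MCAM-high, 69.2 and 46.8 in control MCAM-medium and 50.9, 77.8 and 123 in control KIT-positive libraries, but 9.72, 11.8, 6.65, 5.19 and 8.77 CPM in later replicates 1 to 5. The change of -3.32 ± 0.27 from KIT-positive cells (edgeR adjusted p = 2.2e-15) was among the deepest of all start-site peaks, of which 0.653% had a lower value. Start-site peaks on the X chromosome were lower as a whole: the median of 669 was -1.47, with 59% called lower, against -0.05 and 25.8% on autosomes. Among these X-linked peaks 33 (4.93%) had a lower value than Pgk1. Against KIT-negative cells Pgk1 changed by -2.76 ± 0.25 (edgeR adjusted p = 1.49e-14), and 156 (23.3%) of the X-linked peaks had a lower value.

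Lactate dehydrogenase interconverts pyruvate and lactate. The Ldhc start (chr7:46860757-46861360, also within 1 kb of Gm39011) had 6.29, 9.06 and 11.6 CPM in control MCAM-high, 10.1 and 10.3 in control MCAM-medium and 6.74, 3.11 and 1.78 in control KIT-positive libraries. Later replicates 1 to 5 had 38.5, 40.3, 28.8, 20.8 and 27.4 CPM, all above every spermatogonial value. Ldhc was higher in later germ cells by 3 ± 0.44 against KIT-positive cells (edgeR adjusted p = 7.53e-08) and by 1.71 ± 0.30 against KIT-negative cells (edgeR adjusted p = 1.12e-06). Without control KIT-positive replicate 1 the first was 3.69. The 2 flank peaks, with their nearer edges at -1200 and -1899 bp from the start, had at most 6.23 CPM in spermatogonia and 9.74 to 20.5 CPM in later libraries. The nearer one was higher by 2.83 ± 0.65 against KIT-positive cells (edgeR adjusted p = 0.000238), and by 4.41 without control KIT-positive replicate 2, which held 6 of that group's 8 counts. Both flank peaks passed the filter on low counts only with the later libraries. Their direction was thus fixed in advance, and this p-value gives no separate support.

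Ldha, which lies next to Ldhc on chromosome 7, was the only somatic counterpart whose start was not lower in later germ cells. Its start (chr7:46845513-46846271) had 14 to 29.3 CPM in the 5 control KIT-negative libraries, 8.99, 9.34 and 8.3 CPM in control KIT-positive libraries and 28.5, 29.7, 28.1, 21.4 and 21.4 CPM in later replicates 1 to 5. Relative to KIT-positive cells it was higher by 1.52 ± 0.35 (edgeR adjusted p = 0.000295). Against KIT-negative cells the difference was 0.49 ± 0.26 (edgeR adjusted p = 0.0959), and it passed with DESeq2 (0.69, adjusted p = 0.00912) and with DESeq2's size factors in edgeR (0.69, adjusted p = 0.0163). It also passed once replicate 1 of control MCAM-medium was left out (0.72, edgeR adjusted p = 0.0437). A second annotated Ldha start, farther downstream, was higher than in KIT-positive cells as well (1.36 ± 0.43, edgeR adjusted p = 0.00614).

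Pyruvate dehydrogenase links glycolysis to the citric acid cycle, and Pdha1 and Pdha2 encode its catalytic alpha subunit. The Pdha2 peak (chr3:141211187-141212147) lies inside this intronless gene, with its nearer edge 208 bp downstream of the start, and no peak overlapped the promoter window. It had 14.2 to 35.9 CPM in the 17 spermatogonial libraries and 66.3, 87.3, 69.4, 78.5 and 69.6 CPM in later replicates 1 to 5. The groups did not overlap, and the difference was 1.44 ± 0.26 against KIT-positive cells (edgeR adjusted p = 5.02e-06) and 1.86 ± 0.22 against KIT-negative cells (edgeR adjusted p = 5.79e-11).

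Pdha1, on the X chromosome, went down. The Pdha1 start (chrX:160137812-160138742, also within 1 kb of Gm39547) had 14.5 to 36.8 CPM in spermatogonia and 5.56, 6.19, 0, 2.6 and 2.19 CPM in later replicates 1 to 5, where replicate 3 held no count. The change from KIT-positive cells was -2.59 ± 0.41 (edgeR adjusted p = 4.6e-07), a value that 118 (17.6%) of the X-linked start-site peaks lay below.

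**Figure D3:**
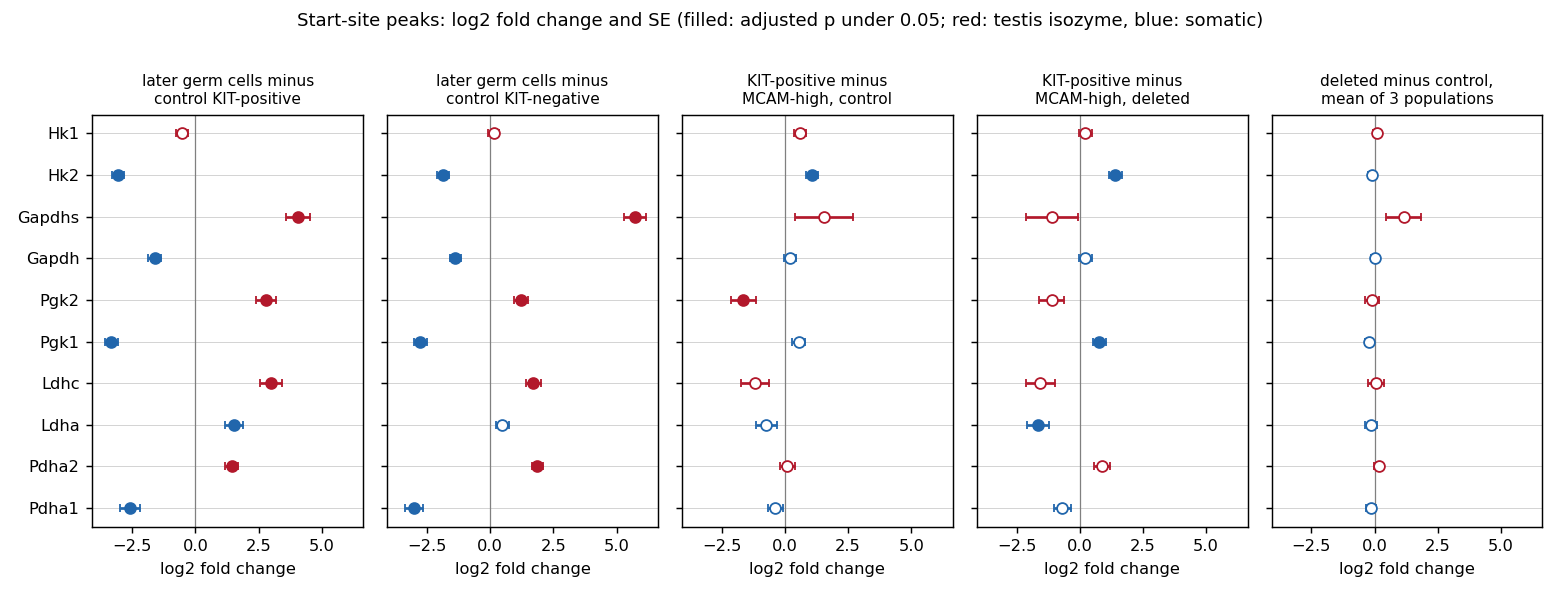
Log2 fold change (horizontal axis, one scale in all panels) with its SE at the start-site peak of each gene in 5 comparisons; filled points passed an edgeR adjusted p of 0.05, red marks testis isozymes and blue somatic counterparts. In both comparisons with later germ cells Gapdhs, Pgk2, Ldhc and Pdha2 lie right of 0 and Hk2, Gapdh, Pgk1 and Pdha1 left of it, and in the deletion panel no point is filled.

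The ratio of testis isozyme to somatic counterpart within a library uses no scaling between libraries. It was taken on the start-site peaks, as counts per kb of peak with 0.5 counts added. Where a peak held 0 counts, the added 0.5 and the depth of the library set the value. This was the case for Gapdhs in 3 of the 8 control libraries and for Pdha1 in 1 later library. In all 5 pairs the 5 later libraries lay above the 8 control spermatogonial libraries without overlap (two-sided exact permutation test, p = 0.00155 for each pair, the smallest the design allows; adjusted over the 5 pairs, 0.00155). Of single peaks tested, 20.1% lay wholly above and 6.19% wholly below all 17 spermatogonial libraries. No such share is given for ratios of other peak pairs, so these p-values do not set the isozyme pairs apart from other genes. The log2 ratio of Gapdhs to Gapdh went from -5.13 ± 1.67 (SD, n = 8) to 1.98 ± 0.59 (n = 5), that of Pdha2 to Pdha1 from -0.20 ± 0.65 to 4.84 ± 1.60, and that of Pgk2 to Pgk1 from -2.93 ± 1.56 to 1.94 ± 0.14. Smaller shifts were seen for Hk1 over Hk2, from -1.60 ± 0.29 to 0.56 ± 0.43, and for Ldhc over Ldha, from -0.71 ± 0.59 to 0.57 ± 0.23. The mean difference was thus 7.12, 5.04, 4.87, 2.16 and 1.28 in these 5 pairs. With 1 library left out, it ranged from 4.37 to 5.38 for Pdha2 to Pdha1 and from 4.47 to 5.02 for Pgk2 to Pgk1. The order of these pairs is thus not settled. In later germ cells the start-site peak of the testis isozyme gene carried more signal per kb than that of its counterpart in every library and pair. For Hk1 this was the downstream start, whose values overlapped those of spermatogonia, while the Hk2 start was lower. Stage, genotype and source differ together between the groups, and the ratio does not separate them.

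The order of the 10 genes turned over accordingly, compared as CPM per kb of start-site peak. In the 8 control spermatogonial libraries the means ran from Hk2 (118 ± 58.5, SD) and Pgk1 (104 ± 37) over Gapdh (52.6 ± 8.55), Hk1 (36.6 ± 9.81), Pdha1 (28 ± 6.92), Pdha2 (24.6 ± 7.51), Ldha (19.2 ± 8.94), Pgk2 (16.1 ± 9.18) and Ldhc (12.2 ± 5.87) down to Gapdhs (2.44 ± 3.64). Hk2 and Pgk1, and each neighbour from Hk1 down to Ldhc, lay closer together than 1 SD. In the 5 later libraries Pdha2 (77.3 ± 8.97) and Gapdhs (75.2 ± 14.4) led, followed by Ldhc (51.7 ± 13.5) and Pgk2 (49.9 ± 10.9), then Ldha (34.1 ± 5.38) and Hk1 (33.3 ± 6.08). Each of these 3 couples lay within 1 SD. Hk2 (22.3 ± 4.32), Gapdh (19.1 ± 5.46), Pgk1 (12.8 ± 3.95) and Pdha1 (3.56 ± 2.75) closed the order, and the first 2 of these 4 lay within 1 SD of each other.

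**Figure D4:**
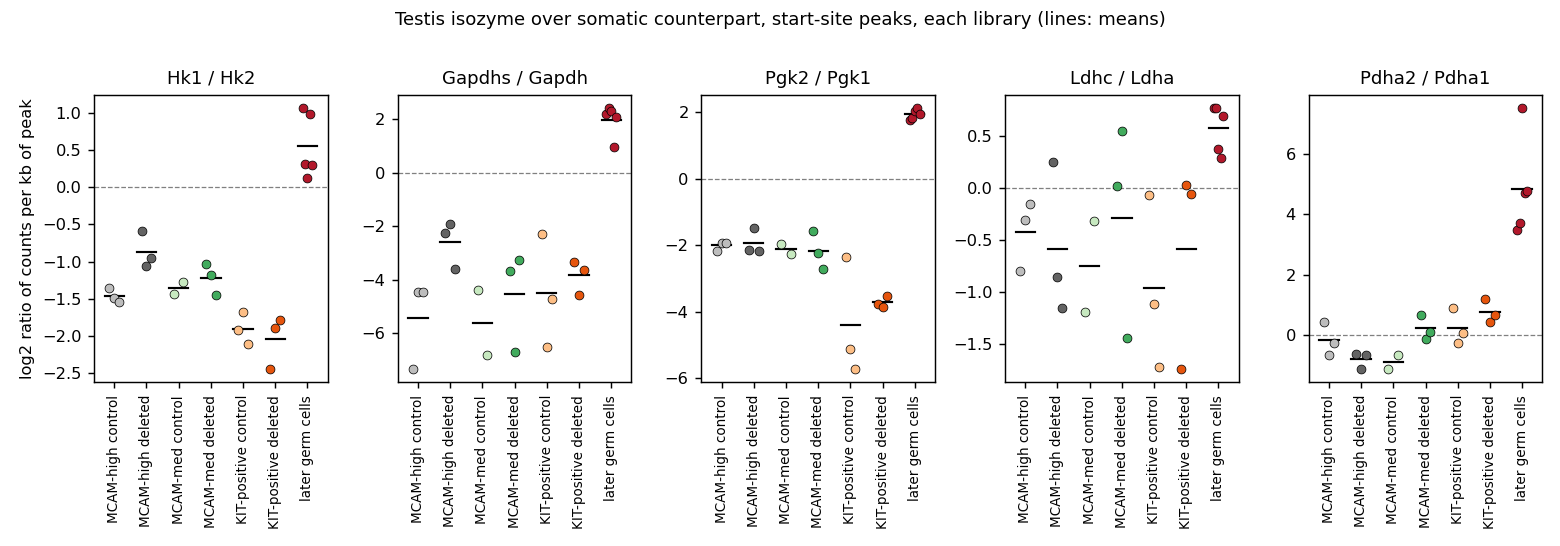
Log2 ratio of the start-site peak of the testis isozyme to that of its somatic counterpart, in counts per kb of peak (vertical axis), for each library by group (horizontal axis); lines are group means and the dashed line marks equal signal. The later libraries lie above 0 in all 5 pairs, and the KIT-positive libraries have the lowest Hk1 to Hk2 and Pgk2 to Pgk1 means.

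Differences between the sorted spermatogonial populations were smaller. In control cells, KIT-positive against MCAM-high, 2 of 17 tested member peaks passed, against 15.8% of all 57289 peaks (9.64% higher and 6.11% lower): the Hk2 start was higher and the Pgk2 start lower. Scaling to total counts turned the balance of all calls from 5522 higher and 3502 lower to 4067 and 5005, and the median of all peaks from -0.05 to -0.22 on the log2 scale, and both member calls were kept in direction.

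Hk2 rose with KIT in both genotypes. It went from 52.1, 44.9 and 47.8 CPM in control MCAM-high to 87.6, 79.9 and 135 CPM in control KIT-positive replicates 1 to 3 (log2 fold change 1.08 ± 0.24, edgeR adjusted p = 0.00114). In TERT-deleted cells it went from 29.6, 45.6 and 33.3 to 121, 99.1 and 73.6 CPM (1.41 ± 0.25, edgeR adjusted p = 0.000107). The 6 KIT-positive libraries lay above the 11 KIT-negative ones, at 73.6 to 135 against 29.6 to 52.2 CPM. Such a separation upwards was found for 3.96% of the 73134 peaks tested in the fit with later germ cells, a wider set than the 57289 tested for KIT. Both calls held in all 12 alternatives run for each. The genotypes' KIT effects on Hk2 differed by 0.33 ± 0.34, which did not pass (edgeR adjusted p = 0.996).

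Pgk2 fell with KIT in control cells (-1.64 ± 0.48, edgeR adjusted p = 0.014). This rested on 2 libraries, since the call was lost without control KIT-positive replicate 2 (-1.37, edgeR adjusted p = 0.069) or replicate 3 (-1.22, edgeR adjusted p = 0.136), and was larger without replicate 1 (-2.86). In deleted cells the same comparison gave -1.11 ± 0.48 (edgeR adjusted p = 0.119), with 7.23, 6.23 and 6.2 CPM in KIT-positive against 11.8, 18 and 11.6 CPM in MCAM-high libraries. Over both genotypes the 6 KIT-positive libraries had a median of 6.22 CPM and the 11 KIT-negative ones 14.7 CPM, with ranges that met between 10.4 and 11.2 CPM.

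In TERT-deleted cells, KIT-positive against MCAM-high, 3 of 17 tested member peaks passed, against 13.7% of all peaks, 9.39% higher and 4.35% lower (here too, total-count scaling turned the balance, from 5382 higher and 2492 lower to 3576 and 4154). Besides Hk2 these were Ldha, lower at -1.64 ± 0.44 (edgeR adjusted p = 0.0081), and Pgk1, higher by 0.77 ± 0.26 (edgeR adjusted p = 0.0375). The Ldha call was lost without deleted MCAM-high replicate 2 (-1.35, edgeR adjusted p = 0.0752). The Pgk1 call was lost in 9 of 12 alternatives, among them DESeq2 (adjusted p = 0.0526) and 5 of 6 fits with 1 library left out; it was kept without deleted KIT-positive replicate 3. Ldhc stood at -1.56 ± 0.56 without passing (edgeR adjusted p = 0.0544), and it passed in 5 of 12 alternatives.

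Against MCAM-medium cells, KIT-positive cells differed at 2 of 17 member peaks in each genotype, where 9.32% of all peaks passed in control cells (5.70% higher and 3.62% lower) and 6.87% in deleted cells (4.59% higher and 2.27% lower). Hk2 was higher in both (1.28 ± 0.28, edgeR adjusted p = 0.00194 in control; 1.02 ± 0.24, edgeR adjusted p = 0.006 in deleted cells). Ldha was lower in control cells (-1.35 ± 0.45, edgeR adjusted p = 0.0451), and the Gapdhs peak near Tmem147 was higher in deleted cells (0.98 ± 0.27, edgeR adjusted p = 0.0155). With 1 library left out, the count lay between 0 and 3 in control cells, with 0 without MCAM-medium replicate 1 and 1 without KIT-positive replicate 2 or 3. In deleted cells it lay between 1 and 2, with 1 without KIT-positive replicate 1 or 3 or MCAM-medium replicate 3. MCAM-medium and MCAM-high cells differed at none of the 17 in either genotype (edgeR), where 0% of all peaks passed in control and 0.0140% in deleted cells; 0 member peaks in control and 2 in deleted cells had an unadjusted p under 0.05.

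As a ratio, Hk1 to Hk2 separated the 6 KIT-positive from the 11 KIT-negative libraries of both genotypes without overlap, at -1.97 ± 0.27 against -1.21 ± 0.29 (SD; two-sided exact permutation p = 0.000162, the smallest possible, and 0.000808 adjusted over 5 pairs). Here too, no share for ratios of other peak pairs is given. Pgk2 to Pgk1 went from -2.05 ± 0.34 to -4.06 ± 1.2 (exact permutation p = 0.000323, adjusted 0.000808). Both ratios moved towards the somatic counterpart in KIT-positive cells and away from it in later cells, with Hk1 taken at its downstream start. Pdha2 to Pdha1 moved towards the testis gene already here, from -0.37 ± 0.59 to 0.49 ± 0.53 (exact permutation p = 0.0113, adjusted 0.0189), a call lost without deleted KIT-positive replicate 1 (difference 0.73, adjusted exact permutation p = 0.0519). Ldhc to Ldha differed by -0.29 (adjusted exact permutation p = 0.54) and Gapdhs to Gapdh by 0.28 (0.76), within the spread of libraries. These tests took all libraries as independent. Within 6 sources of same-numbered libraries, the Hk1 to Hk2, Pgk2 to Pgk1 and Pdha2 to Pdha1 differences did not pass. Each had an adjusted exact permutation p of 0.0521 (unadjusted 0.0312, the smallest possible).

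After TERT deletion none of the 17 tested member peaks passed, averaged over the 3 populations, in any population alone or in the difference between KIT-positive and MCAM-high cells (edgeR, with DESeq2 also 0). The background was low as well, with 0.124% of all peaks called for the mean of the populations. In MCAM-high cells it was 0.0489%, with MCAM-medium at 0.00873% and KIT-positive at 0.00349%, and it was 0% for the difference. At an unadjusted p under 0.05 stood 1 member peak in the mean, 1 in the MCAM-high population and 1 in the MCAM-medium one, all at Gapdhs, and 0 for KIT-positive cells or the difference. For 9 of the 10 start-site peaks the mean effect lay between -0.22 ± 0.15 (Pgk1) and 0.16 ± 0.19 (Pdha2) on the log2 scale.

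Gapdhs was the exception in size, at 1.15 ± 0.69 (edgeR adjusted p = 0.959). Its start had 6.75, 10.3 and 3.1 CPM in deleted MCAM-high replicates 1 to 3 and 0, 1.73 and 1.58 CPM in control ones, which gave 2.61 ± 1.09 in that population (unadjusted p = 0.0206, edgeR adjusted p = 0.726). The ranges did not overlap, and the counts behind them were low, between 0 and 16 per library. Only a fit that also held the later libraries called it (2.70 ± 0.69, edgeR adjusted p = 0.0461). In the same population the deleted libraries had 1245977 ± 201514 total counts and the control libraries 2212132 ± 453808 (SD, n = 3 each), and the part of this gap in depth was not tested.

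Of 51 other genes of glucose entry, glycolysis, lactate handling and pyruvate oxidation, 47 had a start-site peak. In later germ cells against KIT-positive cells 13 were higher, 13 lower and 21 did not pass, with a median log2 fold change of -0.07, close to that of all start-site peaks (-0.08). Over all start-site peaks 24.1% were higher and 26.9% lower. Among the genes that were higher were Aldoart1 (2.57 ± 0.30) and Aldoart2 (2.06 ± 0.31), retrogene copies of aldolase A with germ-cell expression. Others were the lactate exporter gene Slc16a3 (2.09 ± 0.67), the fructose transporter gene Slc2a5 (2.05 ± 0.46) and Dlat, for the E2 subunit of pyruvate dehydrogenase (1.53 ± 0.26).

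Lower were 2 kinases that switch pyruvate dehydrogenase off, Pdk1 (-2.25 ± 0.29) and Pdk4 (-2.24 ± 0.35), and Pfkfb3 (-2.14 ± 0.27), whose product makes the activator of phosphofructokinase. The somatic isozyme genes Ldhb (-1.87 ± 0.35), Pfkl (-1.72 ± 0.38) and Aldoc (-1.55 ± 0.35) were lower too (edgeR adjusted p between 3.01e-10 and 0.00705 for these 11 genes). By step, glucose entry had 2 higher and 2 lower of 4, glycolysis 6 and 4 of 25, lactate 3 and 2 of 6, and pyruvate entry and oxidation 2 and 5 of 12. Against KIT-negative cells, 18 of the 47 were higher and 11 lower, with a median of 0.21, beside 36.5% higher, 28.6% lower and a median of 0.11 over all start-site peaks.

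**Figure D5:**
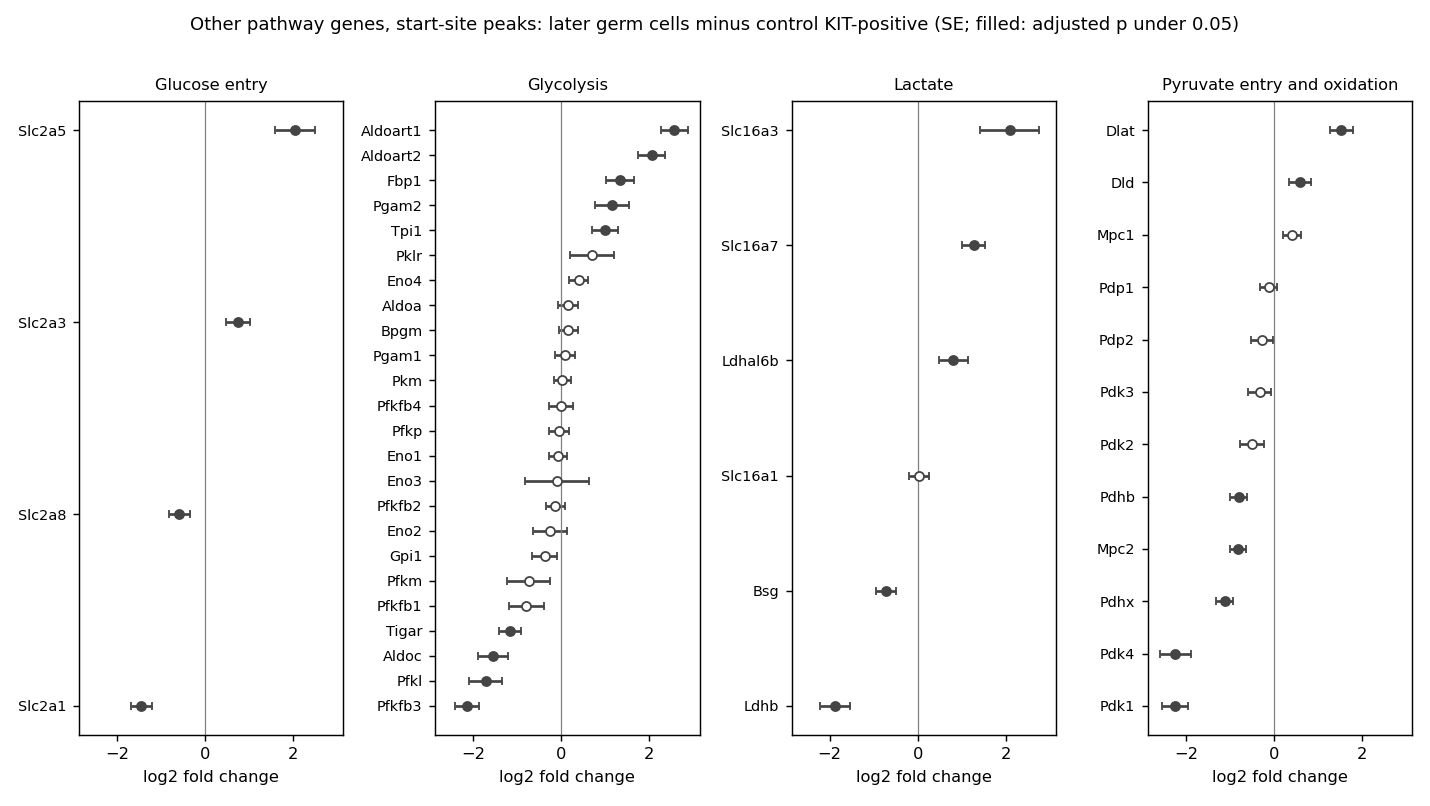
Log2 fold change with SE (horizontal axis) at the start-site peak of the other pathway genes, 1 of them not shown, later germ cells minus control KIT-positive spermatogonia, in 4 panels by step; filled points passed an edgeR adjusted p of 0.05. The aldolase retrogenes lead glycolysis at 2.57 and 2.06, and Pdk1 and Pdk4 lie lowest in pyruvate oxidation at -2.25 and -2.24.

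With KIT, the pathway genes were called about as often as all start-site peaks. In control cells, KIT-positive against MCAM-high, 6 of 45 tested genes were higher and 1 lower, beside 14.1% and 4.51% of all start-site peaks. The 6 were Pgam1 (1.02 ± 0.26), Pdhb (0.96 ± 0.22), Mpc2 (0.95 ± 0.20), Aldoa (0.95 ± 0.25), Dld (0.88 ± 0.29) and Pdhx (0.86 ± 0.22), of which Mpc2 encodes part of the mitochondrial pyruvate carrier and Pdhb, Dld and Pdhx parts of the pyruvate dehydrogenase complex; Ldhal6b was the 1 lower (-0.94 ± 0.34). In deleted cells 7 were higher and none lower, beside 13.6% and 3.31%, and Mpc2 (1.32 ± 0.20) had the largest change. Pgam1 (0.87 ± 0.26) and Pdhb (0.72 ± 0.22) passed there too. TERT deletion changed 0 of 45 in the mean of the populations (edgeR), with 0.0618% of 17789 start-site peaks called.

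The genes whose start-site signal was most like that of each testis isozyme over the 22 libraries were found by Pearson's r of log2 CPM, over 23041 genes, as a description. For Gapdhs these were Gm30225 (r = 0.945) and Cpa5 and Gm31453, which share a peak (r = 0.944). For Pdha2 they were Gtsf2 (0.942), Slc22a22 (0.929) and Acsl6 (0.928), and for Pgk2 4932413F04Rik (0.934), Rpsa-ps11 (0.923) and Eid3 (0.918). Rpsa-ps11 (0.925), Gm32925 (0.922) and Bnipl (0.92) were most like Ldhc. The downstream Hk1 start had no gene over 0.9, and the closest were D430020J02Rik and Ncapg2 (0.841, 1 shared peak) and n-TGgcc13 (0.834). The genes named for Gapdhs, Pdha2, Pgk2 and Ldhc were all higher on average in the 5 later libraries than in spermatogonia, as these isozymes were. Their choice by correlation over the same libraries made this likely in advance. The peak of D430020J02Rik and Ncapg2 had a mean of 87.9 against 94 CPM.

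Within the later group, the 5 libraries differed by a factor of 1.32 (Pdha2) to 2.27 (Pgk1) between highest and lowest at the start-site peaks, Pdha1 left out for its 0. In values picked after they were seen, replicates 1 and 2, titled spermatocytes and named round spermatids, had the highest 2 values at Ldhc and Ldha. Replicates 4 and 5, titled round spermatids and named spermatocytes, had the lowest 2. These differences were not tested, and which stage each pair is cannot be told from the labels.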

How the data were processed

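Raw read counts of 22 ATAC-seq libraries over 1 shared set of 96049 peaks were deposited by the authors. The submitters' processing notes name Bowtie2, Picard, SAMtools and FastQC as tools and GRCm38, mm10 and hg19 as builds, with no role for any. How peaks were called, whether reads were shifted for Tn5, and how duplicate and multi-mapping reads were treated are not given in the sources used here. Between 48.8% and 73.9% of the nonzero counts in a library were even numbers. Control KIT-positive replicate 3 had the highest share, and the effect on the results was not tested.

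Groups came from titles and marker entries. Genes were placed by RefSeq coordinates (GRCm38), and 7994 of 24672 genes without a promoter window got a start-site peak by either gene end. The test per peak was that of edgeR 4.0.16 under R 4.3.3 (quasi-likelihood, TMM, filterByExpr, Benjamini-Hochberg, threshold 0.05) in 1 fit of 17 spermatogonial libraries and 1 of 13 TERT-heterozygous libraries. DESeq2 1.42.0, other scalings, no filter, other sets of libraries and left-out libraries were alternatives. Both procedures were tested on simulated data. Ratios were tested with Python 3.11.15 and scipy 1.17.1. Members and lists were chosen with earlier results of these data known. Named were the 10 start-site peaks, the other peak of each gene with the smallest p between later and KIT-positive cells, and up to 6 pathway genes per direction, of which 1 is not reported here. The Hk1 peak in the gene body, the Gapdhs peak near Tmem147 and the farther Ldhc flank peak were named after their values were seen. So were the glycolysis genes set beside Ldhb, Pfkl and Aldoc. Library depth limits precision below about 3 counts (1.04 to 3.11 CPM), for counting error only.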

Additional observations from a re-analysis of the deposited data

Results flagged for a closer look

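The log2 ratio of Gapdhs to Gapdh in later replicate 4 was 0.946, while the other 4 later libraries lay between 2.09 and 2.42. The gap to the nearest of them was 0.774 of the whole range, above Dixon's 95% critical value of 0.71 for 5 values. Of 21 values examined in this way 1 passed, and chance alone marks about 1 in 20. That library had both the lowest Gapdhs signal of the 5 (39.6 CPM) and the highest Gapdh signal (27.3 CPM).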

How the results depend on the processing

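The number of member peaks called moved by over 1.5 times in 3 alternatives besides left-out libraries. With a replicate block by library source, control KIT-positive against MCAM-medium gave 1 (2172 against 5342 calls over all peaks). With all 22 libraries in 1 fit, deleted KIT-positive against MCAM-high gave 5 in place of 3, and deletion in MCAM-high gave 1 in place of 0, with 311 against 28 calls over all peaks. Deletion in the mean of the populations called 71 peaks in all, 391 in the fit of 22 libraries and 159 without a filter. The ratio of Hk1 to Hk2 taken at the upstream Hk1 start, an alternative chosen after seeing the data, differed by -0.902 with KIT (adjusted exact permutation p = 0.483). The causes were not tested.

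Same-numbered libraries did not deviate together: 0 of 16 pairs of 1 genotype had a correlation over 0.1 (range -0.325 to 0.0464), so the numbers were not taken as pairs. With so few libraries per group and low counts at many peaks, this check cannot exclude a shared source. Within 6 sources, the replicate block gave KIT differences of -2.02 for Pgk2 to Pgk1, 0.857 for Pdha2 to Pdha1 and -0.733 for Hk1 to Hk2, each with an exact permutation p of 0.0312, the smallest possible, and 0.0521 adjusted, so that none of the 3 passed.

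With 1 library left out, members called ranged from 17 to 19 for later against KIT-positive, 16 to 18 against KIT-negative, 1 to 3 for KIT-positive against MCAM-high in either genotype, 0 to 3 against MCAM-medium in control and 1 to 2 in deleted cells, and stayed at 0 for every deletion and MCAM contrast. Where 1 MCAM-medium control library remained, it was assumed to vary like the other groups. The KIT difference of Pdha2 to Pdha1 ranged from 0.729 to 1.01, of Pgk2 to Pgk1 from -2.35 to -1.67 and of Hk1 to Hk2 from -0.818 to -0.666. No start-site call changed direction. Depth was a limit at the closed starts of Gapdhs and Hk1, where spermatogonial libraries held 0 to 16 and 0 to 6 counts.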
